A study of Mus musculus with 41 samples.

Results

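The 10 genes described here encode proteins that hold, release, bind and relay transforming growth factor beta (TGF-beta) in T cells. They were taken by gene symbol from the table of raw counts: Lrrc32, Tgfb1, Itgb8, Tgfbr1, Tgfbr2, Tgfbr3, Acvr1b, Smad3, Smad7 and Skil, which are 10 of its 19434 genes. All 10 were found and all 10 passed the filter on low counts in both experiments of the study. The study asked how Uhrf1, whose product carries DNA methylation over to new DNA strands, bears on regulatory T (Treg) cells.

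In the chimera experiment, CD25hi Foxp3-YFP+ Treg cells were sorted from female mice 8 weeks of age. Chimeric knockouts were Uhrf1fl/flFoxp3+/YFP-Cre (n = 4) and controls were Uhrf1+/+Foxp3YFP-Cre/YFP-Cre (n = 4). Cre is driven by Foxp3 in both groups. The knockouts are heterozygous for the X-linked Cre allele, so Treg cells without Cre develop beside those sorted, whereas the controls are homozygous for it. In the pulse-chase experiment, 6 libraries per population came from Uhrf1fl/flFoxp3GFP-CreERT2Rosa26SorCAG-tdTomato mice (iUhrf1fl/fl, here fl/fl) and 5 from Uhrf1+/+ mice that carried the same Cre and reporter alleles (control). Every one of these mice ate tamoxifen chow for 2 weeks and then standard chow for 4 weeks, and their age is given as 8 weeks. Tamoxifen switches on CreERT2 in cells that express Foxp3, and the tdTomato reporter then marks them and their progeny. Labeled Treg cells (GFP+ and tdTomato+) kept Foxp3, ex-Foxp3 cells (tdTomato+ only) had been marked and had lost the Foxp3-GFP signal, and post-tamoxifen Treg cells (GFP+ only) carried no mark. The labels call all libraries biological replicates but do not say that each came from another mouse, so the p-values measure the spread between these libraries.

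TGF-beta is made as a latent complex in which the mature cytokine is caged by its own propeptide. Treg cells dock this complex on GARP, the product of Lrrc32, and the integrin alpha-v beta-8, whose beta chain is encoded by Itgb8, frees the active cytokine. Active TGF-beta binds the type II receptor TGFBR2, which recruits and phosphorylates the type I receptor TGFBR1, and the receptor complex phosphorylates Smad2 and Smad3. Smad7 and SnoN, the product of Skil, are induced by the pathway and restrain it. TGF-beta signals help T cells to switch on Foxp3 outside the thymus.

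Because Uhrf1 acts at methylated CpG sites, the start regions of those members whose genotype or population differences lead the results are shown here with every CpG in capitals. Each window runs from 250 bases before to 50 bases after the start of the RefSeq transcript on GRCm38.p6. Windows were sought for every member except Smad7, and 6 genes were matched to one. Lrrc32, Tgfbr3 and Skil had no match, so the start regions of Lrrc32 and Tgfbr3, which differed most between populations, are not shown. The window of Acvr1b lies at chr15:101173822-101174121 (plus strand), that of Tgfbr1 at chr4:47352972-47353271 (plus strand), that of Tgfbr2 at chr9:116175314-116175613 (minus strand) and that of Itgb8 at chr12:119238227-119238526 (minus strand).
Acvr1b: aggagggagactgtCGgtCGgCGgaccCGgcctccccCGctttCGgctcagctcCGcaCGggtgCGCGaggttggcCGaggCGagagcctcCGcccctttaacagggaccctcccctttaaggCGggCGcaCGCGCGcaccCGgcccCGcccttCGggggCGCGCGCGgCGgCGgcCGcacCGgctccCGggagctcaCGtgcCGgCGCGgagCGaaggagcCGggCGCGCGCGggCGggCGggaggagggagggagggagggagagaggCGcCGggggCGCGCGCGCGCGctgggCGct
Tgfbr1: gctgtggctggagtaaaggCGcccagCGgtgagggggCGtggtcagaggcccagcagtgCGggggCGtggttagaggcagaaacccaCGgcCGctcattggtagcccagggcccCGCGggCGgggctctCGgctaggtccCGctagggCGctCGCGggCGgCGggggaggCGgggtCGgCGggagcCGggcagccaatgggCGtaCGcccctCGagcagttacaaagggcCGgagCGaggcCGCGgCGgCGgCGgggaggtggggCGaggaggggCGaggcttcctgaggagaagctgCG
Tgfbr2: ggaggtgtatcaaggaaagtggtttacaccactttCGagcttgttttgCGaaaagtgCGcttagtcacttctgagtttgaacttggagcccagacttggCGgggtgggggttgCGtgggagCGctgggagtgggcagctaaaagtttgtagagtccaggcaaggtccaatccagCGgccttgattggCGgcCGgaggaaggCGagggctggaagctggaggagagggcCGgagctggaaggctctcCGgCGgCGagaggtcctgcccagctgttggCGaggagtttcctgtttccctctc
Itgb8: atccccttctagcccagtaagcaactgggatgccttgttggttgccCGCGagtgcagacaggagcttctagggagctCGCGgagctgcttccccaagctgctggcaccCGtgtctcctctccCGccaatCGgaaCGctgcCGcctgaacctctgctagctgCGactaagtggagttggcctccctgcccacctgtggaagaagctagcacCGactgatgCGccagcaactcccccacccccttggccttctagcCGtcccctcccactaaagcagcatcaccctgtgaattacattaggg

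These windows differ in CpG content. The Acvr1b window held 51 CpG sites, more than 99.28% of the 32851 RefSeq start windows of the same length, whose median was 7. The Tgfbr1 window held 34 and the Tgfbr2 and Itgb8 windows held 15 and 13. The Itgb8 window lay wholly inside the annotated gene, whose minus-strand extent begins upstream of it at chr12:119238802. Tgfb1 and Smad3, whose windows are not printed, had 30 and 25. The core Smad-binding letters CAGAC, read on both strands, occurred 1 time each in the Tgfbr2 and Itgb8 windows and at 0 places in those of Acvr1b, Tgfb1 and Smad3 and the Tgfbr1 window shown. A second RefSeq start of Tgfbr1, at chr4:47385966-47386265, held 3 CpG sites and 1 such match. They occurred in 49.59% of all windows. The forkhead letters GTAAACA, also read on both strands, were in none of them, against 3.65% of all windows. Methylation itself was not measured in these files.

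Several libraries stood apart or went against a label. Total counts ran from 2403189 to 5709702 per library in the chimera experiment and from 781437 to 3435802 in the pulse-chase experiment. Uhrf1 was measured at 32.5, 22.4, 23.4 and 22.3 CPM (counts scaled to a common library size) in chimera controls 1 to 4 and at 11.96, 8.66, 9.27 and 22.3 CPM in chimeric knockouts 1 to 4, so the library labelled chimeric knockout 4 lay at the control level. Uhrf1 passed the test in the chimera (log2 fold change -0.95 ± 0.25, SE; edgeR adjusted p = 0.0378) and in no pulse-chase comparison of genotypes, where it ran at 11.3 to 104 and 10.4 to 88.5 CPM in control and fl/fl labeled, 7.30 to 34.2 and 6.99 to 26.2 CPM in ex-Foxp3 and 13.7 to 59.6 and 18.9 to 156 CPM in post-tamoxifen cells. Which exons are floxed is not given in the labels, so whole-gene counts need not show a deletion where Cre acted. Post-tamoxifen cells carried no tdTomato mark of Cre activity, so a deletion of Uhrf1 in them is not shown. Their Uhrf1 difference, fl/fl against control, was 1.62 ± 0.64 (log2 ± SE, edgeR adjusted p = 0.113). Reads of 4 Y-linked genes summed to 430.5 CPM in chimera control 1, although its group is labelled female, and to between 318 and 455 CPM in numbers 2 and 3 of the pulse-chase controls in every population; all others were at or below 2.33 CPM. Markers of B cells summed to 78.6 and 74.3 CPM in chimera controls 3 and 4, against 5.64 and 8.06 CPM in controls 1 and 2 and 7.62 to 15.8 CPM in the knockouts. Each of the 7 B-cell markers was detected in both chimera groups. In the pulse-chase, 6 markers of dividing cells, all of them detected in every group, summed to 1643 to 3588 CPM in labeled and post-tamoxifen fl/fl libraries 1 to 3 and to 243 to 425 CPM in libraries 4 to 6. Foxp3 was low in the libraries labelled post-tamoxifen control 2 (123 CPM) and post-tamoxifen fl/fl 3 (128 CPM), against 388 to 428 CPM in labeled controls. Foxp3 fell from labeled to ex-Foxp3 cells by 1.90 on the log2 scale in controls and by 2.63 in fl/fl mice (edgeR adjusted p = 0.0235 and 5.33e-05). Ex-Foxp3 libraries still held 79.4 to 151 CPM of Foxp3 mRNA in controls and 13.3 to 113 CPM in fl/fl mice. Calls that these libraries decide are given with and without them.

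The clearest pattern among the 10 genes followed the loss of Foxp3. In fl/fl mice, ex-Foxp3 cells had less Lrrc32, Tgfb1 and Tgfbr1 mRNA and more Tgfbr2 and Tgfbr3 mRNA than labeled Treg cells. These 5 of 10 members passed the test, where 4.09% of the 9921 genes tested did. In controls edgeR called only Tgfbr2 (1 of 10, where 0.353% of genes passed) in the fit of all pulse-chase libraries without a block. With the library number as a block, which the pairing of numbers allows here, Lrrc32, Tgfbr1 and Tgfbr3 passed in controls too, in the same direction as in fl/fl mice. That fit called 211 of the 9921 genes, against 35 without the block. DESeq2, without a block, called Lrrc32, Tgfbr2 and Tgfbr3 in controls, among 86 genes. With the compared groups fitted alone, these and Tgfbr1 passed, among 137 genes. Groups are said below to overlap or not for each member, and the share of all genes that did not overlap was not counted. Between genotypes, Itgb8 was lower in chimeric knockouts (1 of 10, where 2.41% of genes passed), Acvr1b was lower in fl/fl ex-Foxp3 cells (1 of 10, where 0.181% passed) and Tgfbr2 was lower in fl/fl post-tamoxifen cells (1 of 10, where 7.23% passed). Because post-tamoxifen cells carried no tdTomato mark, their genotype differences are not shown to be those of cells that lost Uhrf1. No member passed in labeled cells (0 of 10, where 0.0101% of genes passed), with 2 members at an unadjusted p under 0.05 in edgeR and 0 called by DESeq2. Labeled cells had less Tgfbr3 than post-tamoxifen cells in controls (1 of 10, where 7.93% passed) and in fl/fl mice (1 of 10, where 4.58% passed). The response to Foxp3 loss did not differ detectably between genotypes for any member (0 of 10, where 0% of genes passed), nor did the difference between labeled and post-tamoxifen cells (0 of 10, where 0.0202% passed). In both of these tests of differences edgeR gave 0 members at an unadjusted p under 0.05 and DESeq2 called 0. Adjusted p-values come from edgeR's quasi-likelihood test, adjusted by the Benjamini-Hochberg method across every gene in the fit, and a call is an adjusted p under 0.05. The median log2 fold change of the 10 members, beside that of all genes tested, was 0.065 (0.00085) in the chimera, -0.21 (0.0029) in labeled, -0.24 (0.0050) in ex-Foxp3 and -0.24 (0.0083) in post-tamoxifen cells between genotypes. It was -0.037 (-0.00056) in controls and -0.25 (0.0073) in fl/fl mice on loss of Foxp3, and -0.18 (0.0028) and -0.078 (-0.017) between labeled and post-tamoxifen cells. Within a genotype, the comparison of ex-Foxp3 with labeled cells and that of labeled with post-tamoxifen cells use the same labeled libraries.

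**Figure D1:**
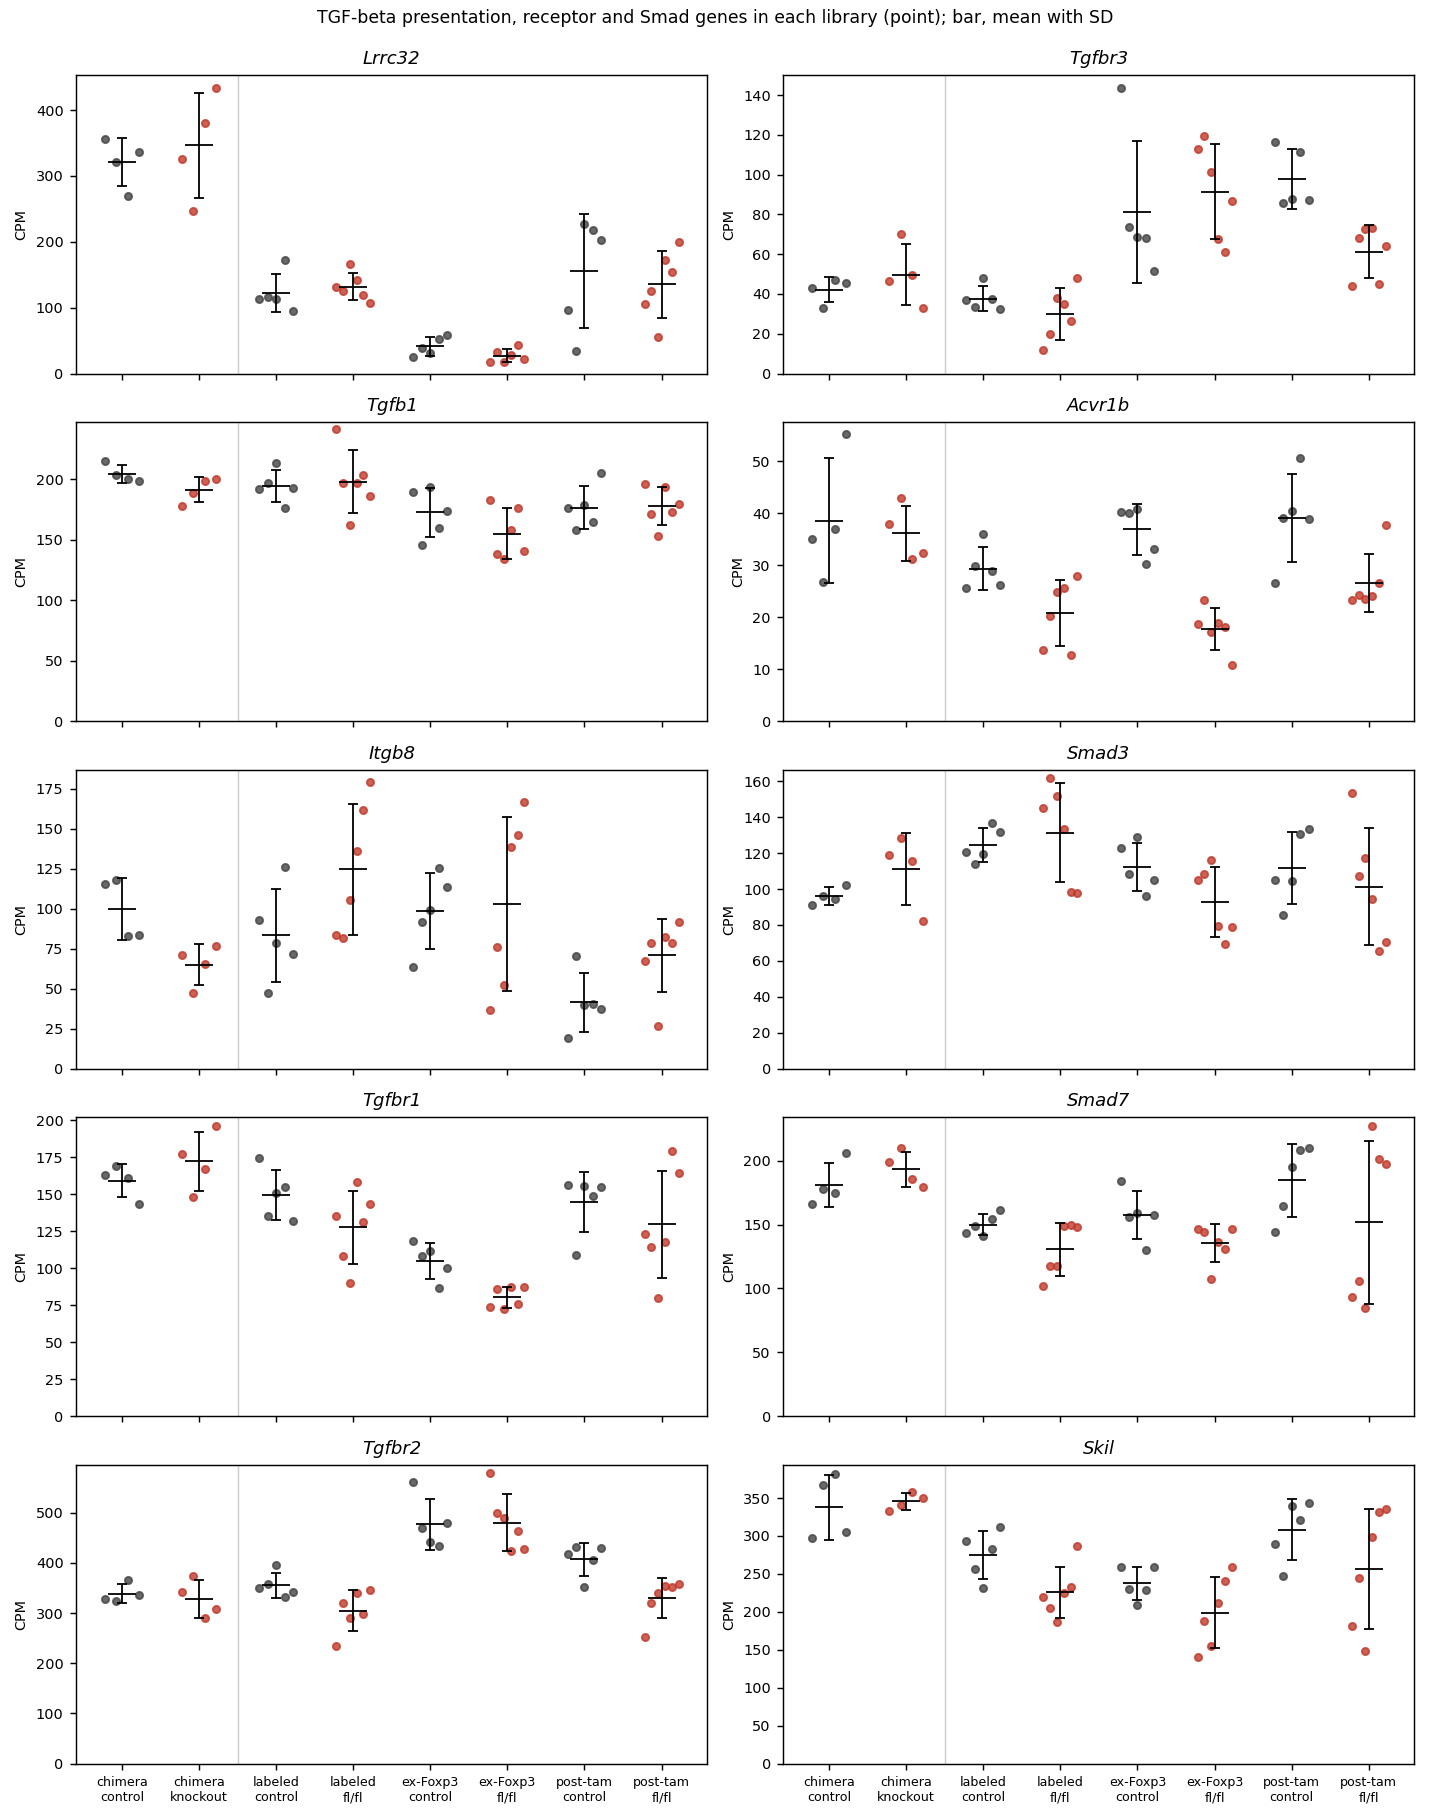
Level of each of the 10 genes (y axis, CPM of the TMM-scaled library) in every library (points) of the 8 groups (x axis), with group means and SD as bars; controls are grey and Uhrf1-floxed groups red. The ex-Foxp3 libraries sit lowest for Lrrc32 and Tgfbr1 among pulse-chase group means, and the fl/fl points lie below the control points for Acvr1b in ex-Foxp3 cells (10.7 to 23.3 against 30.2 to 40.9 CPM).

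The levels of the 10 genes can be set against each other only per length of transcript. In labeled controls, Tgfbr2 had the highest mean level at 43.4 CPM per kilobase of exon, followed by Tgfb1 at 38.6 and Smad7 at 33.1 CPM per kilobase. Skil, Lrrc32, Tgfbr1 and Smad3 lay between 22.5 and 28.4 CPM per kilobase. Itgb8, Acvr1b and Tgfbr3 were lowest, at 7.53, 6.64 and 5.76 CPM per kilobase. The co-receptor thus had the lowest level per length and the ligand-binding receptor the highest. All other levels are in CPM and are compared only within a gene and an experiment. In sorted bulk libraries, fewer cells that express a gene and less RNA per cell cannot be told apart.

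Lrrc32 (chr7:98494222-98501831, plus strand) encodes GARP, the docking protein for latent TGF-beta on activated Treg cells. Labeled controls 1 to 5 held 113, 117, 113, 172 and 95.1 CPM and ex-Foxp3 controls 1 to 5 held 25.7, 38.8, 30.7, 52.1 and 57.9 CPM. The lowest, median and highest fl/fl values were 107, 128 and 166 CPM in labeled cells and 17.6, 25.4 and 43.1 CPM in ex-Foxp3 cells. Every ex-Foxp3 library lay below every labeled library of its genotype. The difference was -2.27 ± 0.36 (log2 ± SE) in fl/fl mice, 4.84-fold lower, with an edgeR adjusted p of 2.16e-04. In controls it was -1.56 ± 0.38 and missed the threshold (edgeR adjusted p = 0.0579). With the library number as a block, which the pairing of numbers between these populations allows, it passed there (-1.65, adjusted p = 0.0289). It also passed there by DESeq2 and with the compared groups fitted alone. The test of the difference between genotypes gave -0.71 ± 0.51 (edgeR adjusted p = 1).

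Post-tamoxifen Treg cells did not differ detectably from labeled cells in Lrrc32, and their libraries were spread widely. Post-tamoxifen controls 1 to 5 held 96.4, 33.5, 227, 218 and 203 CPM, and fl/fl libraries held 55.5, 139.8 and 199 CPM (lowest, median and highest). The lowest values belonged to post-tamoxifen control 2 and fl/fl 3, the same libraries in which Foxp3 was low, and the part of the sort in this was not tested. Post-tamoxifen fl/fl libraries also divided by number, with 106, 126 and 55.5 CPM in numbers 1 to 3 and 172, 154 and 199 CPM in numbers 4 to 6, which did not overlap. In order of mean, Lrrc32 ran from post-tamoxifen control (156 CPM) through post-tamoxifen fl/fl (135 CPM), labeled fl/fl (132 CPM) and labeled control (122 CPM) to ex-Foxp3 control (41.04 CPM) and ex-Foxp3 fl/fl (26.99 CPM). Of the neighbours in this order, only labeled control and ex-Foxp3 control had ranges that did not overlap. In the chimera, controls held 356, 322, 269.9 and 337 CPM and knockouts 326, 247, 379.6 and 433 CPM, which overlapped (0.10 ± 0.17, edgeR adjusted p = 0.872).

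**Figure D2:**
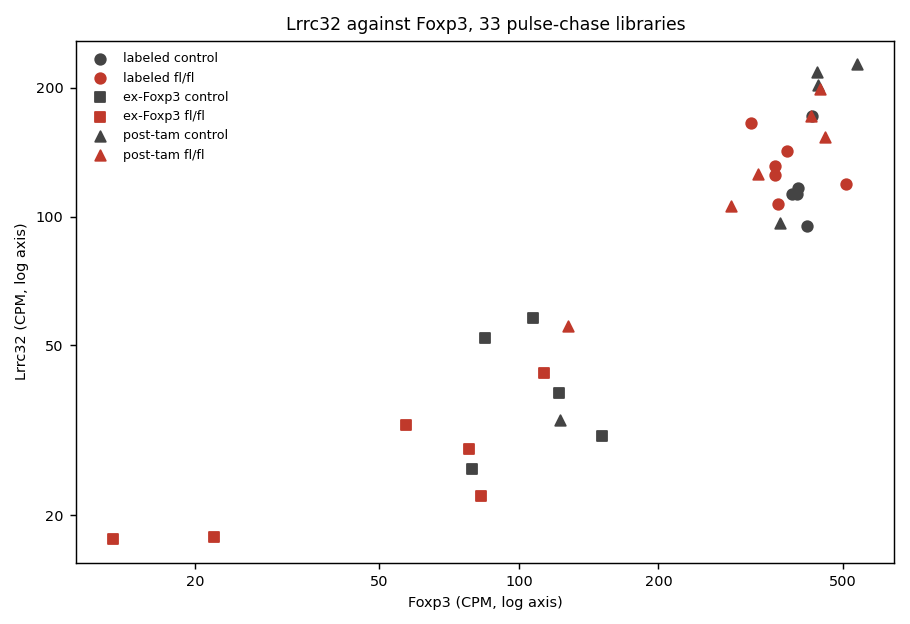
Lrrc32 (y axis, CPM, log scale) against Foxp3 (x axis, CPM, log scale) in the 33 pulse-chase libraries, by population (circles labeled, squares ex-Foxp3, triangles post-tamoxifen) and genotype (grey control, red fl/fl). Ex-Foxp3 libraries hold 17.6 to 43.1 CPM of Lrrc32 in fl/fl mice and 25.7 to 57.9 CPM in controls, and post-tamoxifen control 2 and fl/fl 3 lie near them at 33.5 and 55.5 CPM.

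The genes whose log2 CPM most resembled that of Lrrc32 over the 33 pulse-chase libraries were Il2ra (Pearson's r = 0.95), which encodes the CD25 chain of the interleukin-2 receptor, Coro2a (r = 0.93) and Foxp3 (r = 0.92). These values describe libraries that differ by population and genotype. Taken as deviations from the 6 group means, r was 0.87, 0.86 and 0.71.

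Tgfb1 (chr7:25687002-25705077, plus strand), which encodes the main TGF-beta isoform of lymphocytes, varied little. Its group means ran from 155 to 198 CPM in the pulse-chase and every pair of neighbouring groups overlapped. In fl/fl mice, labeled cells held 162, 197 and 242 CPM (lowest, median and highest) and ex-Foxp3 cells 134, 149 and 183 CPM, so the groups overlapped. The difference was -0.35 ± 0.096 (edgeR adjusted p = 0.0287), 1.27-fold lower. It missed the threshold without labeled fl/fl 1 or without ex-Foxp3 fl/fl 2, 3 or 6 (adjusted p from 0.0557 to 0.0839), and in numbers 1 to 3 alone (-0.41 ± 0.15, adjusted p = 0.125) and numbers 4 and above alone (-0.31 ± 0.12, adjusted p = 0.233). Labeled controls held 192, 197, 214, 177 and 193 CPM and ex-Foxp3 controls 189.9, 146, 194, 159 and 174 CPM (-0.17 ± 0.10, edgeR adjusted p = 0.636). In the chimera, Tgfb1 stood at 205 ± 7.43 CPM (SD, n = 4) in controls and 192 ± 10.6 CPM (SD, n = 4) in knockouts, with no call. Markers of platelets, which are known to hold TGF-beta, were near 0: the 6 markers summed to at most 12.03 CPM in any library, with Pf4, Ppbp, Gp9 and Treml1 at 0 throughout the pulse-chase. The genes nearest to Tgfb1 over the 33 libraries were Jund (r = 0.70), Mrfap1 (r = 0.66) and Hspa8 (r = 0.66).

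Itgb8 (chr12:119158022-119238802, minus strand) encodes the integrin chain that lets Treg cells release active TGF-beta. In the chimera, controls 1 to 4 held 116, 118, 83.2 and 83.3 CPM and knockouts 1 to 4 held 70.97, 47.1, 65.7 and 76.5 CPM. Every knockout library lay below every control library. The difference was -0.64 ± 0.15 (edgeR adjusted p = 0.0320), 1.55-fold lower in knockouts. Controls 3 and 4, in which B-cell and dividing-cell markers were high, had the lower control values, and without both the difference was -0.85 (adjusted p = 0.00382). Leaving out control 1, control 2, or knockout 1, 2 or 3 ended the call, with log2 values from -0.68 to -0.49 and adjusted p from 0.068 to 0.101. Control 1 is the library with Y-linked reads, and without it the difference was -0.56 (adjusted p = 0.0851). Without the library labelled chimeric knockout 4 the call was kept.

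In the pulse-chase, Itgb8 passed no test between genotypes over all libraries, and its spread was wide. Labeled controls held 93.2, 47.1, 78.5, 126 and 71.5 CPM, ex-Foxp3 controls 63.3, 91.7, 99.3, 126 and 113 CPM and post-tamoxifen controls 19.02, 70.6, 39.7, 40.5 and 37.1 CPM. Among fl/fl libraries the lowest, median and highest were 81.9, 121 and 179 CPM in labeled, 36.8, 107 and 167 CPM in ex-Foxp3 and 26.9, 78.6 and 91.5 CPM in post-tamoxifen cells. In the order of mean level, labeled fl/fl stood first (125 CPM) and post-tamoxifen control last (41.4 CPM), and all neighbouring groups overlapped. In fl/fl labeled and ex-Foxp3 cells the values divided by library number: numbers 1 to 3 held 83.7, 81.9 and 105 CPM in labeled and 36.8, 76.1 and 52.4 CPM in ex-Foxp3 cells, and numbers 4 to 6 held 136, 162 and 179 CPM and 138, 146 and 167 CPM. Libraries 4 to 6 were higher in both populations without overlap. The dividing-cell markers moved the other way, and their part in this was not tested.

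Within numbers 4 and above alone, Itgb8 was higher in labeled than in post-tamoxifen cells. The difference was 1.40 ± 0.21 in controls (edgeR adjusted p = 2.21e-06), where only controls 4 and 5 remained in each population. In fl/fl mice it was 0.92 ± 0.16 (adjusted p = 4.41e-05). Over all numbers the values were 0.95 ± 0.38 and 0.82 ± 0.34 and missed the threshold (adjusted p = 0.143 and 0.190), as they did within numbers 1 to 3 (0.65 ± 0.44 and 0.67 ± 0.43). Without the libraries low in Foxp3, post-tamoxifen control 2 and fl/fl 3, the control value was 1.24 (adjusted p = 0.0320) and the fl/fl value 0.65 (adjusted p = 0.315). Between genotypes of post-tamoxifen cells, numbers 4 and above alone gave 1.13 ± 0.19 (adjusted p = 2.34e-04), from 40.5 and 37.1 CPM in controls to 82.2, 78.7 and 91.5 CPM in fl/fl mice, whereas the pooled value was 0.70 ± 0.37 (adjusted p = 0.250). The genes nearest to Itgb8 over the 33 libraries were Nt5e (r = 0.87), which encodes the ectoenzyme CD73, Wls (r = 0.86) and Slc41a1 (r = 0.84). As deviations from group means, r was 0.87, 0.87 and 0.77. Nt5e was also lower in chimeric knockouts (-0.67 ± 0.11, edgeR adjusted p = 0.00202).

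Tgfbr2 (chr9:116087698-116175363, minus strand), the type II receptor that binds the ligand, was highest in ex-Foxp3 cells. In controls, labeled libraries 1 to 5 held 350.3, 359, 396, 331 and 341 CPM and ex-Foxp3 libraries held 561, 469, 442, 433 and 479 CPM. In fl/fl mice the lowest, median and highest values were 235, 309 and 346 CPM in labeled and 423, 476 and 578 CPM in ex-Foxp3 cells. Every ex-Foxp3 library lay above every labeled library in both genotypes. The increase was 0.65 ± 0.093 in fl/fl mice, 1.57-fold (edgeR adjusted p = 1.26e-05), and 0.42 ± 0.10 in controls, 1.34-fold (adjusted p = 0.0458). The call in controls was lost when any 1 of the 10 libraries was left out, with log2 values from 0.36 to 0.46 and adjusted p from 0.0536 to 0.202. Leaving out controls 2 and 3 (those with Y-linked reads) gave 0.53 (adjusted p = 0.176). It passed with the block by number (0.42, adjusted p = 0.0164). Within fl/fl mice the increase was 0.87 ± 0.13 within numbers 1 to 3 and 0.41 ± 0.098 within numbers 4 and above, both past the threshold (adjusted p = 1.80e-04 and 0.0121). The difference between genotypes in this response was 0.23 ± 0.14 (adjusted p = 1).

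By mean, Tgfbr2 in post-tamoxifen cells lay between that in labeled and ex-Foxp3 cells of the same genotype. Post-tamoxifen controls held 417, 432, 351, 406 and 429 CPM and fl/fl libraries 253, 346 and 358 CPM (lowest, median and highest), which overlapped. Tgfbr2 was 1.23-fold lower in fl/fl cells (log2 fold change -0.30 ± 0.097, edgeR adjusted p = 0.0475). That call was close to the threshold: it was lost on leaving out control 1, 2, 4 or 5 or fl/fl 1, 2, 3 or 5 (edgeR adjusted p up to 0.16). RLE scaling factors (but not upper-quartile factors), no count filter and fitting the compared groups alone also ended it. So did leaving out the libraries low in Foxp3 (-0.27, adjusted p = 0.121) or controls 2 and 3 (-0.33, adjusted p = 0.0846). Within numbers 1 to 3 the difference was -0.39 ± 0.13 (adjusted p = 0.0462) and within numbers 4 and above -0.23 ± 0.11 (adjusted p = 0.340). B-cell markers summed to 559.6, 169 and 186 CPM in post-tamoxifen fl/fl 1 to 3 and to 10.2 to 11.8 CPM in fl/fl 4 to 6, and their part in this was not tested. By mean, Tgfbr2 ran from ex-Foxp3 fl/fl (479.9 CPM) and ex-Foxp3 control (477 CPM) to post-tamoxifen control (407 CPM), labeled control (355 CPM), post-tamoxifen fl/fl (329 CPM) and labeled fl/fl (305 CPM). Of these neighbours only ex-Foxp3 control and post-tamoxifen control did not overlap. In the chimera the groups overlapped, at 328, 324, 365 and 337 CPM in controls and 342, 374, 289.9 and 307 CPM in knockouts. The genes nearest to Tgfbr2 were Tcf7 (r = 0.88), which encodes the T-cell factor TCF1, Hipk1 (r = 0.85) and Rassf2 (r = 0.84). As deviations from group means, r was 0.56, 0.45 and 0.44.

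Tgfbr1 (chr4:47353222-47414931, plus strand), the type I receptor kinase, fell on loss of Foxp3 in fl/fl mice, where Tgfbr2 rose. Labeled controls held 174, 135, 151, 155 and 132 CPM and ex-Foxp3 controls 119, 109, 112, 86.5 and 100.1 CPM. The lowest, median and highest fl/fl values were 90.1, 133 and 158 CPM in labeled and 72.4, 80.9 and 87.2 CPM in ex-Foxp3 cells. In both genotypes every ex-Foxp3 library lay below every labeled library. The log2 fold change was -0.66 ± 0.14 in fl/fl mice (edgeR adjusted p = 0.00314), 1.58-fold lower, and -0.79 ± 0.15 within numbers 4 and above (adjusted p = 6.82e-04) but -0.52 ± 0.18 within numbers 1 to 3, which missed the threshold (adjusted p = 0.0859). In controls it was -0.51 ± 0.15 (adjusted p = 0.146), which passed with the block by number (-0.51, adjusted p = 0.0103). It also passed there with the compared groups fitted alone, but not by DESeq2. Ex-Foxp3 fl/fl libraries were lowest of the 6 groups in mean (80.4 CPM) and their highest library, 87.15 CPM, just overlapped the lowest ex-Foxp3 control at 86.52 CPM; the difference of -0.38 ± 0.15 was not called (adjusted p = 0.327). Neighbouring groups in the order of means all overlapped. In the chimera Tgfbr1 held 163, 169, 161 and 143 CPM in controls and 177, 148, 167 and 196 CPM in knockouts, which overlapped. The genes nearest to Tgfbr1 were Cerk, Foxp3 and Il2ra (r = 0.83 for each), with r of 0.47, 0.55 and 0.52 as deviations from group means.

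Tgfbr3 (chr5:107106570-107289629, minus strand) encodes betaglycan, a co-receptor that presents TGF-beta to the signalling receptors. It was low in labeled Treg cells and higher in both other populations. Labeled controls held 36.99, 33.3, 48.3, 37.7 and 32.3 CPM, ex-Foxp3 controls 144, 73.7, 68.6, 68.3 and 51.8 CPM and post-tamoxifen controls 117, 85.9, 87.7, 111 and 87.5 CPM. Among fl/fl libraries the lowest, median and highest were 11.7, 30.6 and 48.05 CPM in labeled, 61.2, 94.1 and 119 CPM in ex-Foxp3 and 43.99, 66.1 and 73.4 CPM in post-tamoxifen cells. Every ex-Foxp3 library lay above every labeled library in both genotypes. Post-tamoxifen and labeled libraries did not overlap in controls and overlapped in fl/fl mice.

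On loss of Foxp3, Tgfbr3 rose in fl/fl mice by 1.60 ± 0.24, 3.03-fold (edgeR adjusted p = 1.13e-04), with 2.21 ± 0.34 within numbers 1 to 3 and 0.96 ± 0.21 within numbers 4 and above (adjusted p = 9.33e-04 and 0.00467). In controls the difference was 1.09 ± 0.26 and missed the threshold (adjusted p = 0.0517). It passed with the block by number (1.05, adjusted p = 0.0246), by DESeq2 and with the compared groups fitted alone. Ex-Foxp3 control 1, at 143.7 CPM, lay far above the other ex-Foxp3 controls. The test of the difference between genotypes gave 0.51 ± 0.36 (adjusted p = 1).

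Against post-tamoxifen cells, Tgfbr3 was lower in labeled cells, with a log2 fold change of -1.35 ± 0.26 in controls (edgeR adjusted p = 0.00143) and of -1.04 ± 0.25 in fl/fl mice (adjusted p = 0.0118). With pulse-chase control numbers 2 and 3 left out, the value in controls was -1.54 (adjusted p = 0.0145). Within numbers 1 to 3 both missed the threshold (-1.26 ± 0.32 and -1.37 ± 0.35; adjusted p = 0.0638 and 0.0749) and within numbers 4 and above both passed (-1.48 ± 0.25 and -0.76 ± 0.21). Myeloid markers were higher in post-tamoxifen cells too, with 8 markers summing to 35.8 to 412 CPM in controls and 72.7 to 575 CPM in fl/fl mice, against 33.2 to 54.7 CPM in labeled cells, where Cd14 and Fcgr1 were at 0 in the controls. Their part in the Tgfbr3 difference was not tested. Without post-tamoxifen control 2 and fl/fl 3, the libraries low in Foxp3, the differences were -1.39 and -0.98 (adjusted p = 0.00109 and 0.0269). Each post-tamoxifen fl/fl library lay below each post-tamoxifen control, and the difference of -0.65 ± 0.24 did not pass the test (edgeR adjusted p = 0.0922). It passed with the compared groups fitted alone, and with the block by number, although numbers were not taken to pair libraries in this comparison. In the chimera the groups overlapped, at 43.1, 33.04, 46.8 and 45.4 CPM in controls and 46.5, 69.97, 49.3 and 33.1 CPM in knockouts. By mean the 6 groups ran from post-tamoxifen control (97.8 CPM) through ex-Foxp3 fl/fl and control (91.5 and 81.2 CPM) and post-tamoxifen fl/fl (61.2 CPM) to labeled control and fl/fl (37.7 and 29.8 CPM), and all neighbours overlapped. The extent of Tgfbr3 also holds the annotated same-strand loci Gm43422, Gm43423 and Gm42900 and, on the opposite strand, the pseudogene Gm8145, and how reads were shared among them is not given in the sources used here. The genes nearest to Tgfbr3 were St8sia1 (r = 0.90), Stk38 (r = 0.82) and Fam78a (r = 0.82), with r of 0.76, 0.45 and 0.44 as deviations from group means.

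**Figure D3:**
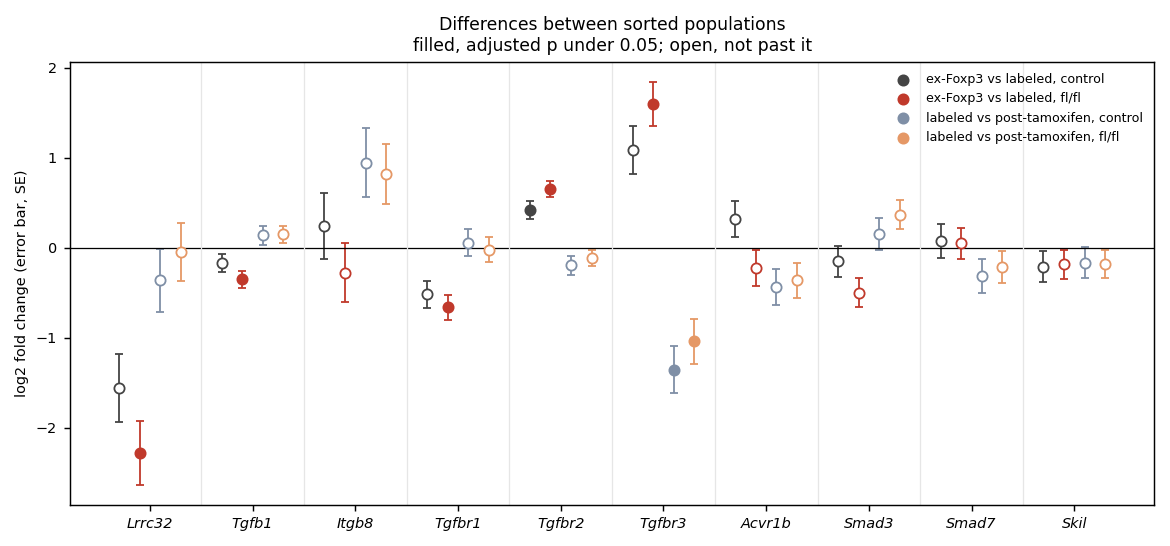
Log2 fold change with SE (y axis) of each of the 10 genes (x axis) between sorted populations within each genotype, with filled points past an adjusted p of 0.05 and open points not past it. Lrrc32 and Tgfbr1 lie below 0 and Tgfbr2 and Tgfbr3 above 0 on loss of Foxp3 in both genotypes, and Tgfbr3 is the member filled in both comparisons of labeled with post-tamoxifen cells. Comparisons of 1 genotype share its labeled libraries.

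Acvr1b (chr15:101174104-101213678, plus strand) encodes ALK4, a type I receptor that serves activin and related ligands and signals through the same Smads as TGFBR1. Its level was lower in fl/fl than in control ex-Foxp3 cells. Ex-Foxp3 controls 1 to 5 held 40.2, 40.1, 40.9, 30.2 and 33.2 CPM, and ex-Foxp3 fl/fl libraries held 10.7, 18.3 and 23.3 CPM (lowest, median and highest). No fl/fl library reached the lowest control. The difference was -1.05 ± 0.20 (edgeR adjusted p = 0.00759), 2.07-fold lower. It stayed past the threshold when any 1 library was left out (largest adjusted p 0.0337). Within numbers 1 to 3 it was -1.03 ± 0.24 (adjusted p = 0.0239) and within numbers 4 and above -1.002 ± 0.30, where it missed the threshold with 2 controls (adjusted p = 0.311). With controls 2 and 3, those with Y-linked reads, left out, it was -0.96 (adjusted p = 0.190).

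Acvr1b had a negative genotype difference in the other pulse-chase populations as well, without a call. Labeled controls held 25.7, 29.9, 36.1, 28.9 and 26.2 CPM and labeled fl/fl libraries 12.7, 22.5 and 27.9 CPM, which overlapped (-0.50 ± 0.20, edgeR adjusted p = 0.434). Post-tamoxifen controls held 26.6, 39.04, 40.5, 50.6 and 38.9 CPM and post-tamoxifen fl/fl libraries 23.3, 24.2 and 37.8 CPM, which overlapped through fl/fl 6 at 37.84 CPM and control 1 at 26.63 CPM (-0.58 ± 0.19, adjusted p = 0.0582). Leaving out either of these libraries brought the second difference past the threshold, to -0.71 (adjusted p = 0.0167) without fl/fl 6 and to -0.66 (adjusted p = 0.0347) without control 1. In the chimera the groups overlapped, at 35.1, 26.9, 37.02 and 55.4 CPM in controls and 38.01, 42.9, 31.2 and 32.5 CPM in knockouts (-0.074 ± 0.18, adjusted p = 0.919). The change of Acvr1b on loss of Foxp3 was 0.32 ± 0.20 in controls and -0.22 ± 0.19 in fl/fl mice, and their difference was -0.55 ± 0.28 (adjusted p = 1), so an effect of genotype particular to ex-Foxp3 cells was not shown. By mean the groups ran from post-tamoxifen control (39.1 CPM), ex-Foxp3 control (36.9 CPM) and labeled control (29.3 CPM) to post-tamoxifen fl/fl (26.6 CPM), labeled fl/fl (20.8 CPM) and ex-Foxp3 fl/fl (17.8 CPM), with all neighbours overlapping. The 5 NK-cell markers, of which Ncr1 was at 0 in both groups, summed to 14.7 to 81.9 CPM in ex-Foxp3 fl/fl and 3.74 to 19.6 CPM in ex-Foxp3 control libraries, and their part in this was not tested. The genes nearest to Acvr1b were Cox7a2l (r = 0.78), Rreb1 (r = 0.77) and Foxp1 (r = 0.77), with r of 0.52, 0.50 and 0.43 as deviations from group means. The microRNA gene Mir6962 lies within Acvr1b on the same strand.

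**Figure D4:**
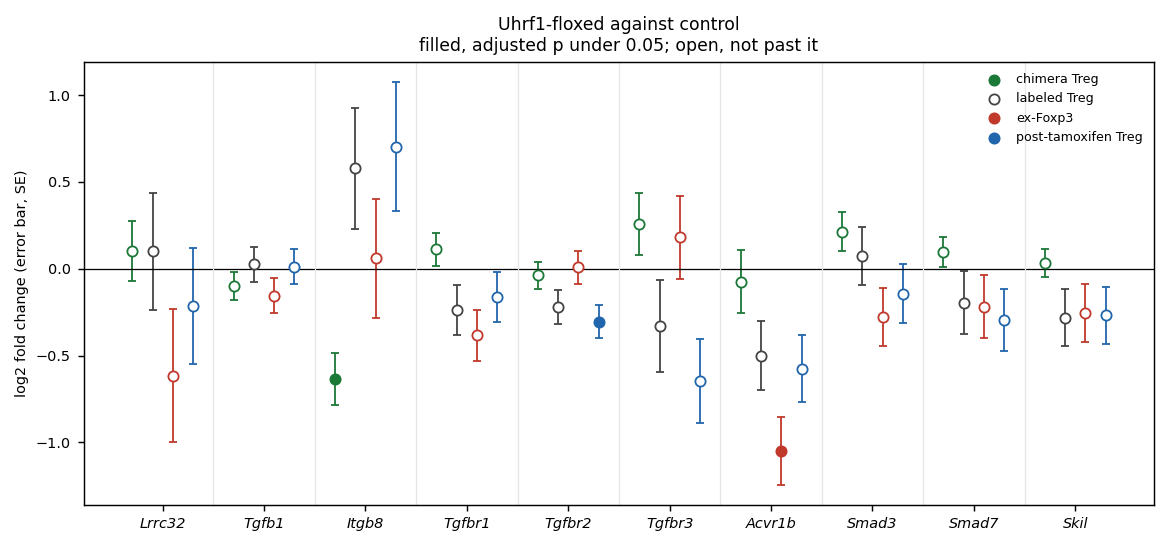
Log2 fold change with SE (y axis) of each of the 10 genes (x axis) between Uhrf1-floxed and control libraries in chimera, labeled, ex-Foxp3 and post-tamoxifen cells, with filled points past an adjusted p of 0.05 and open points not past it. The filled points are Itgb8 in the chimera (-0.64), Acvr1b in ex-Foxp3 cells (-1.05) and Tgfbr2 in post-tamoxifen cells (-0.30).

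Smad3 (chr9:63646767-63757994, minus strand), the signal-carrying Smad, was called by edgeR in no comparison over all libraries when no block was fitted. DESeq2, also without a block, called it on loss of Foxp3 in fl/fl mice. In fl/fl mice, labeled cells held 97.6, 139 and 162 CPM (lowest, median and highest) and ex-Foxp3 cells 69.4, 92.1 and 116 CPM, which overlapped. The difference was -0.50 ± 0.16 (edgeR adjusted p = 0.0694). With the block by number, which the pairing allows here, it passed (-0.50, adjusted p = 9.60e-04), as did the difference between labeled and post-tamoxifen fl/fl cells (0.40, adjusted p = 0.0116; without the block 0.37 ± 0.16, adjusted p = 0.219). Labeled controls held 121, 114, 119.6, 137 and 132 CPM and ex-Foxp3 controls 123, 109, 129, 95.9 and 105 CPM (-0.15 ± 0.17, adjusted p = 0.848). In the chimera, Smad3 stood at 96.1 ± 4.79 CPM (SD, n = 4) in controls and 111 ± 20.1 CPM (SD, n = 4) in knockouts. Knockouts 1 to 3 lay above all controls and the library labelled chimeric knockout 4, whose Uhrf1 was at the control level, lay below them at 82.2 CPM (0.21 ± 0.11, adjusted p = 0.427).

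Smad7, the inhibitory Smad, and Skil (chr3:31095058-31122577, plus strand), the corepressor SnoN, were also called in no comparison over all libraries without a block. In the pulse-chase, Smad7 group means ran from 131 CPM in labeled fl/fl to 185 CPM in post-tamoxifen control, and Skil means from 199 CPM in ex-Foxp3 fl/fl to 308 CPM in post-tamoxifen control, with all neighbours in both orders overlapping. In the chimera, Smad7 held 166, 178, 175 and 206 CPM in controls and 199, 209.7, 185 and 179.6 CPM in knockouts, and Skil 298, 367, 382 and 305 CPM and 333, 341, 359 and 350.3 CPM, and both pairs of groups overlapped. Labeled controls held 144, 149, 141, 154 and 161 CPM of Smad7 and 293, 257, 231, 282 and 312 CPM of Skil. On loss of Foxp3 the Smad7 difference was 0.074 ± 0.19 in controls and 0.053 ± 0.17 in fl/fl mice, and that of Skil -0.21 ± 0.17 and -0.18 ± 0.16.

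In post-tamoxifen fl/fl cells Smad7, Skil and Smad3, like Lrrc32, divided by library number. Smad7 held 93.3, 106 and 85.04 CPM in numbers 1 to 3 and 227, 202 and 197 CPM in numbers 4 to 6. Skil held 181, 245 and 148 CPM and 299, 332 and 336 CPM, and Smad3 153, 107 and 117 CPM and 94.2, 65.4 and 70.3 CPM. Smad7 and Skil were lower and Smad3 higher in numbers 1 to 3, with no overlap. The share of all genes that divided in this way was not counted, so the division is not shown to be particular to these members. Post-tamoxifen controls 1 to 5 held 145, 165, 195, 209 and 210.2 CPM of Smad7, 289, 248, 339, 321 and 343 CPM of Skil and 105, 85.6, 104, 131 and 133 CPM of Smad3. Against controls, numbers 1 to 3 alone gave -0.84 ± 0.14 for Smad7 and -0.61 ± 0.16 for Skil (edgeR adjusted p = 2.70e-04 and 0.0105), and numbers 4 and above gave 0.0062 ± 0.13 and -0.036 ± 0.12 (adjusted p = 0.992 and 0.947). For Smad3 the values were 0.36 ± 0.14 (adjusted p = 0.0948) and -0.76 ± 0.17 (adjusted p = 0.00500), so it changed sign between the splits. The differences between the splits were not tested. The pooled values were -0.30 ± 0.18, -0.27 ± 0.16 and -0.14 ± 0.17, none of them called. Dividing-cell markers summed to 3092, 2370.1 and 3588 CPM in post-tamoxifen fl/fl 1 to 3, to 243, 343 and 425 CPM in 4 to 6 and to 1057, 306, 445, 158 and 134 CPM in post-tamoxifen controls, and B-cell markers were also higher in fl/fl 1 to 3. Their part in the division was not tested, and the labels do not say what the numbers mark.

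**Figure D5:**
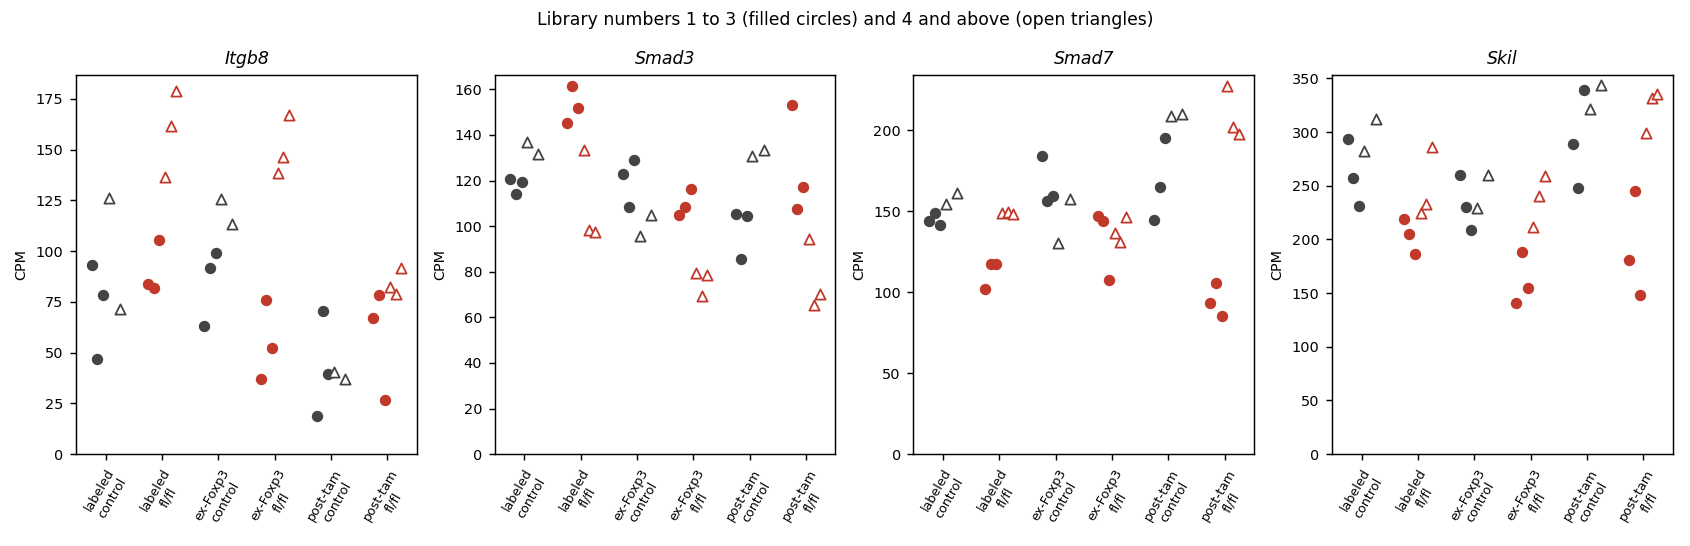
CPM (y axis) of Itgb8, Smad3, Smad7 and Skil in the 6 pulse-chase groups (x axis), with libraries numbered 1 to 3 as filled circles and 4 and above as open triangles, grey for control and red for fl/fl. In post-tamoxifen fl/fl cells Smad7 lies at 93.3, 106 and 85.04 CPM in the circles and at 227, 202 and 197 CPM in the triangles.

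The other genes of the pathway were followed with a list of 66 ligands, receptors, Smads, regulators and targets, of which 41 passed the count filter in the chimera and 43 in the pulse-chase. In the chimera 0 of 41 were higher and 3 were lower in knockouts: the BMP receptor gene Bmpr2 (-0.78 ± 0.15, edgeR adjusted p = 0.00241), Id2, which encodes an inhibitor of helix-loop-helix factors (-1.09 ± 0.24, adjusted p = 0.0165), and Nt5e. The Bmpr2 and Id2 calls were lost in 1 and 7 of 15 alternatives and the Nt5e call in 0. Without controls 3 and 4, whose B-cell and dividing-cell markers were high, 1 of the 3 was called, Nt5e, and Bmpr2 was at -0.64 and Id2 at -1.14 (adjusted p = 0.0955 and 0.109). Of all genes tested, 2.41% were called in the chimera. The list's median log2 value was -0.014, against 0.00085 over all genes tested. In labeled cells 0 of 43 were called between genotypes by edgeR, 6 had an unadjusted p under 0.05 and DESeq2 called 1, Bhlhe40. In ex-Foxp3 cells 1 of 43 was lower in fl/fl mice, the ubiquitin ligase gene Nedd4l (7.03 against 21.8 CPM; -1.60 ± 0.34, adjusted p = 0.0362), and 8 of 21 alternatives lost it, among them that without pulse-chase control numbers 2 and 3 (-1.67, adjusted p = 0.160). Of all genes tested, 0.181% were called in ex-Foxp3 cells and 0.0101% in labeled cells. The list's median was 0.039 in ex-Foxp3 cells and that of all genes 0.0050.

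Between genotypes of post-tamoxifen cells, 4 of 43 listed genes were higher in fl/fl cells and 4 lower, where 7.23% of all genes tested were called, and the list's median was -0.061 against 0.0083 over all genes. Itgae, which encodes the CD103 integrin chain, stood at 151 CPM in fl/fl and 26.3 CPM in control cells (2.46 ± 0.50, edgeR adjusted p = 0.00402). The transcription factor gene Bhlhe40 (1.47 ± 0.26, adjusted p = 0.00127), Nt5e (0.70 ± 0.16, adjusted p = 0.00771) and the activin receptor gene Acvr2a (1.10 ± 0.34, adjusted p = 0.0421) were the other 3 that rose. Those that fell were the corepressor gene Ski (-0.42 ± 0.097, adjusted p = 0.00665), the shared partner Smad4 (-0.36 ± 0.092, adjusted p = 0.0117), Trim33, a Smad4-binding ubiquitin ligase (-0.37 ± 0.098, adjusted p = 0.0151), and the endosomal Zfyve16 (-0.50 ± 0.14, adjusted p = 0.0221). Acvr2a and Zfyve16 each lost the call in 11 of 22 alternatives, Smad4 in 5, Trim33 in 3, Ski in 2, Itgae and Nt5e in 1 each and Bhlhe40 in 0. With pulse-chase control numbers 2 and 3 left out, Smad4 (-0.35, adjusted p = 0.0732) and Zfyve16 (-0.53, adjusted p = 0.0656) missed the threshold, as did Zfyve16 without post-tamoxifen control 2 and fl/fl 3 (-0.49, adjusted p = 0.0545). All 4 lower genes missed it in numbers 4 and above alone (-0.53 to -0.24), where Itgae (2.02), Nt5e (0.88) and Bhlhe40 (0.99) passed, and with the compared groups fitted alone Nt5e and Bhlhe40 were the 2 called. The dividing-cell and B-cell markers stood high in post-tamoxifen fl/fl 1 to 3, as given for Smad7, and their part in these differences was not tested.

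On loss of Foxp3, 0 of 43 listed genes were called in controls by edgeR, 4 had an unadjusted p under 0.05 and DESeq2 called 1, Itgae. Those called in fl/fl mice were 1 higher, the ubiquitin ligase gene Smurf2 (0.42 ± 0.11, edgeR adjusted p = 0.0275), and 2 lower: Itgae (82.5 against 262 CPM; -1.67 ± 0.42, adjusted p = 0.0206) and Pmepa1, a target that restrains the pathway (-0.69 ± 0.21, adjusted p = 0.0498). Of all genes tested, 0.353% were called in controls and 4.09% in fl/fl mice. The list's medians were 0.0058 in controls and 0.037 in fl/fl mice, against -0.00056 and 0.0073 over all genes. Pmepa1 lost the call in 14 of 22 alternatives, Smurf2 in 7 and Itgae in 4. In numbers 1 to 3 alone 0 listed genes were called, with Itgae at -1.51, Pmepa1 at -0.93 and Smurf2 at 0.47 (adjusted p from 0.0655 to 0.188). Without pulse-chase control numbers 2 and 3, which share this fit, Pmepa1 was at -0.70 (adjusted p = 0.0657).

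Labeled cells differed from post-tamoxifen cells in 9 of 43 listed genes in controls, 7 higher and 2 lower, where 7.93% of all genes were called. The higher ones were Itgav, which encodes the alpha-v partner of Itgb8 (0.44 ± 0.14, edgeR adjusted p = 0.0392), the receptor genes Acvr2a (1.19), Bmpr1a (2.44) and Bmpr2 (0.86), and Itgae (2.66), Nt5e (0.95) and Bhlhe40 (0.88). The lower ones were the receptor gene Acvrl1 (-2.36) and the extracellular matrix target Tgfbi (-4.17). For fl/fl mice, Itgav (0.50 ± 0.13, edgeR adjusted p = 0.0130), Bmpr1a (1.64) and Pmepa1 (0.81) were higher and Acvrl1 (-2.49) and Tgfbi (-3.91) lower. These were 5 of 43 listed genes, where 4.58% of all genes were called. In controls, Bhlhe40 lost the call in 10 of 21 alternatives, Itgav in 9 of 21, Acvr2a in 6 of 21, Tgfbi in 5 of 19 and Bmpr1a in 2 of 21, Nt5e in 0, and the other 3 in numbers 1 to 3 alone. With control numbers 2 and 3 left out, Itgav (0.58, adjusted p = 0.0553), Bmpr1a (2.18, adjusted p = 0.0978), Bhlhe40 (1.10, adjusted p = 0.0795) and Tgfbi (-4.40, adjusted p = 0.0655) missed the threshold. The fl/fl calls were lost in 13 of 23 alternatives for Bmpr1a, 7 of 21 for Tgfbi, 4 of 23 for Pmepa1 and 1 each for Itgav and Acvrl1, and 0 listed genes were called in numbers 1 to 3 alone. Bmpr1a in fl/fl mice was at 1.64 (adjusted p = 0.0506) without control numbers 2 and 3. Acvrl1 and Tgfbi were at 2.91 and 0.482 CPM in labeled and 15.6 and 11.03 CPM in post-tamoxifen controls, and the myeloid marker sums given for Tgfbr3 moved with them, a part that was not tested. The list's medians were -0.027 in controls and 0.062 in fl/fl mice, against 0.0028 and -0.017 over all genes. No listed gene differed between genotypes in either response (0 of 43 in both by edgeR and by DESeq2, with 0 and 5 at an unadjusted p under 0.05). The 2 most abundant listed genes without a call were Usp9x, which encodes a deubiquitinase, and Ski (Tab2 in place of Ski between genotypes of post-tamoxifen cells), with for example 426 and 391 CPM of Usp9x in fl/fl ex-Foxp3 and labeled cells.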

How the data were processed

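RNA was sequenced from sorted mouse Treg and ex-Foxp3 cells in 41 libraries. Per the labels' protocols, the AllPrep Micro kit gave the RNA, and the SMARTer Stranded Total RNA-Seq v2 kit was used for the libraries. Per the submitters' processing notes, bcl2fastq 2.17.1.14 and TopHat2 2.1.0 were used with the mm10 build. The authors deposited raw counts per gene as a SeqMonk table. Which annotation was counted, by what rules and on which strand, is not given in the sources used here. No other sample column was found in the table (0).

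The 10 members, the pathway list and the marker lists were chosen with earlier results of these data known. Genes that passed edgeR's filterByExpr (9569 of 19434 in the chimera fit of 8 libraries, 9921 in the pulse-chase fit of 33) were tested with edgeR 4.0.16 in R 4.3.3: TMM scaling, quasi-likelihood F test, Benjamini-Hochberg adjustment over all genes tested, threshold 0.05. Total counts per library ran from 781437 to 5709702. The common biological coefficient of variation was 0.134 in the chimera and 0.215 in the pulse-chase. Levels are CPM of the TMM-scaled library, and CPM per kilobase used exon lengths of GENCODE vM21. In tests on simulated data for the chimera comparison (9482 genes), 82 of 100 genes changed 2-fold and 98 of 100 changed 4-fold were recovered. Over 9791 genes, 66 and 91 of 100 were recovered for the ex-Foxp3 comparison of genotypes, and 66 and 95 for Foxp3 loss in fl/fl mice. None of 87 pairs of replicates was identical (smallest chi-square per degree of freedom 2.60).

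Named genes are the 10 members, Uhrf1 and Foxp3 as label checks, the called members of the pathway list with its 2 most abundant uncalled members, and, for each called member, the 3 genes of highest correlation among 7091 whose mean log2 CPM reached 4. A few members of marker lists were named after their values were seen. Library numbers were taken to pair populations where every same-numbered pair of deviations correlated above 0.1: this held for Foxp3 loss in controls (0.138 to 0.303) and in fl/fl mice (0.144 to 0.360) and for labeled against post-tamoxifen cells in fl/fl mice (0.244 to 0.438), and not for the other comparisons. The labels do not say what a number marks. Alternatives were RLE and upper-quartile scaling, other count filters, DESeq2 1.42.0, the block by number, the compared groups alone, splits by number and leaving out libraries. Figures were drawn with matplotlib 3.10.9.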

Additional observations from a re-analysis of the deposited data

Results flagged for a closer look

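Each member's libraries were examined in each of the 8 groups (80 sets of values), and in 6 of them the highest or lowest library lay far from the rest by Dixon's criterion at the 95% level. Chance gives such a gap in about 1 in 20 groups. Lrrc32 was 171.6 CPM in labeled control 4, against 95.1 to 117 CPM in the other labeled controls. Itgb8 was 26.9 CPM in post-tamoxifen fl/fl 3, against 67.3 to 91.5 CPM in the others of its group, and this library was also low in Foxp3. Tgfbr1 was 109 CPM in post-tamoxifen control 2, the other library low in Foxp3, against 148.5 to 156 CPM. Tgfbr2 was 252.6 CPM in post-tamoxifen fl/fl 1, against 320.1 to 358 CPM, and B-cell markers summed to 559.6 CPM in that library. Tgfbr3 was 143.7 CPM in ex-Foxp3 control 1, against 51.8 to 73.7 CPM. Acvr1b was 37.8 CPM in post-tamoxifen fl/fl 6, against 23.3 to 26.5 CPM. The part of cell composition in these gaps was not tested.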

How the results depend on the processing

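The 29 member differences that had an unadjusted p under 0.05, or that test the change in response to Foxp3 loss for 5 members, were recomputed 669 times: 595 kept their direction and side of the threshold, 45 lost the call, 28 gained it and 1 changed sign. Among these the sign changed for the difference between genotypes in the Tgfbr2 response to Foxp3 loss, from 0.23 over all libraries to -0.027 in numbers 4 and above alone. Over all members and pulse-chase comparisons, 27 of 180 values in the splits by number had the opposite sign to the value over all libraries, 0 of them called in either, among them Smad3 between genotypes of post-tamoxifen cells (-0.14 over all, 0.36 in numbers 1 to 3). The cause was not tested.

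The number of members called in the chimera went from 1 to 0 with the replicate block, and ranged from 0 to 1 when 1 library was left out. Between genotypes of ex-Foxp3 cells it went from 1 to 0 without control numbers 2 and 3 and in numbers 4 and above alone, and was 1 throughout when 1 library was left out. Between genotypes of post-tamoxifen cells it went from 1 to 0 with RLE factors, without a count filter, without control numbers 2 and 3 and without post-tamoxifen control 2 and fl/fl 3 (an alternative chosen after seeing the data). It was 2 by DESeq2 (Tgfbr2 and Acvr1b), 4 with the replicate block (Tgfbr2, Tgfbr3, Acvr1b and Skil), 3 in numbers 1 to 3 alone and 2 in numbers 4 and above alone, and 0 to 2 when 1 library was left out. With the compared groups alone it stayed at 1, with Tgfbr3 called in place of Tgfbr2. On loss of Foxp3 in controls it was 0 without a filter, without control numbers 2 and 3 and in numbers 1 to 3 alone, 3 by DESeq2, 4 with the replicate block and 4 with the compared groups alone, and 0 to 1 when 1 library was left out. On loss of Foxp3 in fl/fl mice it was 4 to 6 throughout. For labeled against post-tamoxifen controls it was 0 in numbers 1 to 3 alone, 2 in numbers 4 and above and 2 without post-tamoxifen control 2 and fl/fl 3, and 1 to 2 when 1 library was left out. In fl/fl mice it was 2 with the replicate block, 0 in numbers 1 to 3 alone, 5 in numbers 4 and above, and 1 to 2 when 1 library was left out. Between genotypes of post-tamoxifen cells, all genes called were 981 by DESeq2, 1650 with the block, 1325 in numbers 1 to 3 and 209 in numbers 4 and above. On loss of Foxp3 in controls they were 86 by DESeq2, 211 with the block and 137 with the compared groups alone. For labeled against post-tamoxifen cells, numbers 1 to 3 and numbers 4 and above gave 125 and 774 in controls and 78 and 774 in fl/fl mice.

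The number of all genes called moved as well. Beside the reported count, the lowest and highest over the alternatives other than leaving out 1 library were 95 and 396 in the chimera (231 reported), 0 and 149 in labeled cells (1), 5 and 229 in ex-Foxp3 cells (18) and 147 and 1650 in post-tamoxifen cells (717). They were 4 and 211 on loss of Foxp3 in controls (35), 179 and 893 in fl/fl mice (406), 125 and 1280 for labeled against post-tamoxifen controls (787) and 78 and 805 in fl/fl mice (454). The highest count was that of the replicate block in these comparisons, except the chimera, where it was that without a filter.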
